A study of Rattus norvegicus with 9 samples.

Results

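The subunits of the mitochondrial respiratory chain and of ATP synthase were examined in smooth muscle cells cultured from the rat pulmonary artery. The members were the genes whose name in the scanner files began with Nduf, Uqcr or Atp5, was Sdha, Sdhb, Sdhc or Sdhd, or began with Cox4 to Cox8. This rule found 89 genes with 108 probes, of 35069 genes with 41012 probes on the array. By known role, 34 of them belong to complex I, 4 to complex II, 7 to complex III, 16 to complex IV and 15 to complex V. The other 13 are assembly factors, copies of subunit genes, or genes not counted here as subunits. After the filter on dim probes 85 members were tested; Ndufaf2, Uqcrq, Cox8c and Cox7b2 were not well above background on all arrays of any group. Names are those of the array files, with the current name of those described where it differs.

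The 9 arrays fall into 3 groups of 3. Cells in hypoxia with quercetin, a plant flavonol, were held at 1% oxygen, and cells in hypoxia were held at 1% oxygen with the vehicle. Cells in normoxia stood in a normoxic incubator with the vehicle, 0.1% DMSO. All came from male SD rats at generation 4, went 24 h without serum and were then kept 24 h in medium with 10% serum, per the labels. No dose of quercetin is given in the sources used here. Since the labels do not tell whether the replicates came from separate cultures, a p-value reflects the spread among these arrays only, which may be technical. Each value below is a log2 signal relative to the 75th percentile of its array, so 0 is a probe as bright as that percentile, and a gene was called at an adjusted p under 0.05 in limma over all 22108 genes tested.

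Complex I takes electrons from NADH and complex II from succinate. Both pass them through ubiquinone to complex III, then through cytochrome c to complex IV, which reduces oxygen, while complex V uses the resulting proton gradient to make ATP. Most subunits are encoded in the nucleus, and several subunits of complex IV exist as isoform pairs with different tissue distribution. Cox4i2 is known for its expression in lung and vascular smooth muscle and for its induction by low oxygen, and in acute oxygen sensing by the pulmonary artery.

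The arrays differed in ways that touch every result below. The 75th percentile of the signal was 450 to 504 with quercetin, 439 to 462 in hypoxia and 627 to 640 in normoxia. Normoxia replicates 1 and 2 shared a slide and a scan day, the third normoxia array shared a slide with the 3 hypoxia arrays, and a further slide held only the quercetin arrays. Slide and quercetin therefore cannot be told apart, and hypoxia can be compared with normoxia within a slide only against normoxia replicate 3. Of 12 smooth muscle markers 10 were named on the array and tested, and Acta2, the usual defining marker, was not among those names. Their summed linear signal was 140.2 to 168 times the percentile with quercetin, 399 to 420.4 in hypoxia and 188 to 319 in normoxia. Single markers among these 10 changed by between -0.81 and 3.39 on the log2 scale in hypoxia against normoxia. With quercetin against hypoxia they changed by between -2.50 and 0.07. Tagln, which encodes the actin-binding protein transgelin, changed by 1.03 and -1.68 in these 2 comparisons. The summed signal of 4 tested epithelial markers was 7.49 to 9.06 with quercetin, 39.5 to 47.0 in hypoxia and 3.77 to 5.62 in normoxia, and Epcam, Cdh1 and Krt19 were too dim to test. The sum of 8 fibroblast markers was 562 to 663 with quercetin, 807 to 895 in hypoxia and 582 to 636 in normoxia, with single markers changing by between -4.24 and 0.73 in hypoxia against normoxia. Of 7 endothelial markers 2 were tested, and of 8 leukocyte markers 4. The sums of those tested were at most 0.16 and 1.95 on any array. Single leukocyte markers changed by between -0.28 and 4.10 in hypoxia against normoxia. Whether these shifts take part in the results on the members was not tested. In bulk RNA, fewer cells of a type and less RNA per cell cannot be told apart.

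The probes of the isoform pairs of complex IV are shown because a pair can be compared only if its probes are distinct. The capitals mark the longest run that both probes of a pair share, which is 4 bases for Cox4i2 and Cox4i1, 5 for Cox6a2 and Cox6a1 and 6 for Cox8b and Cox8a. Positions are those of build rn4 in the array files.
Cox4i2 (chr3:143114063-143114122, plus strand): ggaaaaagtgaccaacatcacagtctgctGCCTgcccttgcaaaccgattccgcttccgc
Cox4i1 (chr19:51024035-51025064, plus strand, the 60 bases being spread over a longer span): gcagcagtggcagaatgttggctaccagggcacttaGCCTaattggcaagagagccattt
Cox6a2 (chr1:187464932-187464991, minus strand): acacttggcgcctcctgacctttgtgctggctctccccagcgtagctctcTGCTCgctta
Cox6a1 (chr12:42533025-42533084, plus strand): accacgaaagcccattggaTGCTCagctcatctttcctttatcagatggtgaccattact
Cox8b (chr1:201057360-201057419, minus strand): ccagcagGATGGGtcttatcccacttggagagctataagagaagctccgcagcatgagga
Cox8a (chr1:209886158-209886217, minus strand): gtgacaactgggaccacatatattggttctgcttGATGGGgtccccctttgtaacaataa

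In hypoxia against normoxia, Cox4i2 rose and Ndufaf4, Cox4nb and Cox6a2 fell furthest. In all 5 of 85 members changed more than 2-fold, against 5323 of the 22108 genes tested. With the 75th percentile as the scale, 19 members were higher and 24 lower in hypoxia, 43 of 85 in all. Over all genes tested 35.3% were called higher and 28.9% lower, 64.2% together, so the members were called no more often than the background. The 5 ways of scaling set side by side were the 75th percentile, the median, labelling spike-in probes, quantile normalization and the authors' deposited table. Under all of them 1 member was called higher and 23 were called lower in hypoxia, against 12% and 28.4% of all genes called higher and lower under every scaling, so the lower share was near that of all genes. The 1 higher member was Cox4i2. The 23 lower members were 11 of complex I, 1 of complex II, 3 of complex III, 4 of complex IV, 1 of complex V and 3 outside the complexes. The median change of the 85 members was 0.02 with the 75th percentile, against 0.10 for all genes tested, and it was -0.29 with quantile normalization and -0.49 with spike-in scaling, against 0.02 and -0.40 for all genes. No direction is therefore given for the family as a whole; relative to the median of all genes the members' median was -0.09 with the 75th percentile and -0.31 with quantile normalization.

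**Figure D1:**
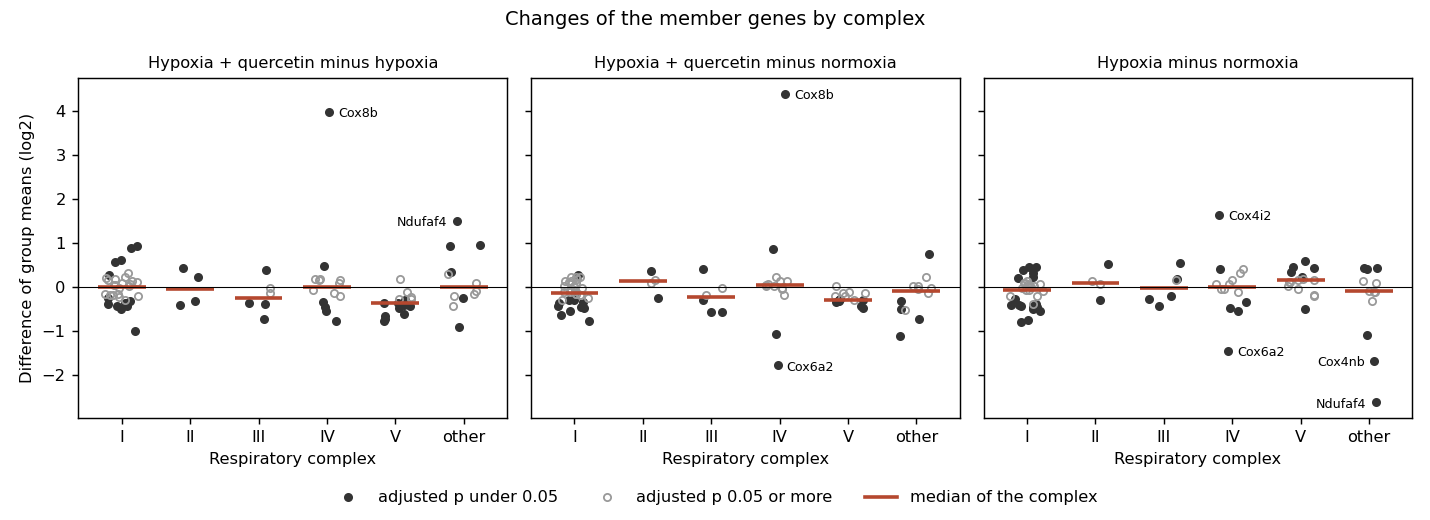
Difference of group means (log2, vertical axis) of each tested member by complex, for quercetin minus hypoxia, quercetin minus normoxia and hypoxia minus normoxia, scaled by the 75th percentile. Filled points had an adjusted p under 0.05, open points did not, and bars are medians. Most members lie within 1 unit of 0, and Cox8b, Cox4i2, Cox6a2, Cox6b2, Ndufaf4, Ndufaf7 and Cox4nb lie outside in at least 1 comparison. The signs of the medians of complexes I to V change with another scaling in at least 1 comparison.

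Cox4i2, the isoform of subunit 4 that is known to be raised by low oxygen, was the member that rose most in hypoxia. It measured 4.43, 4.21 and 4.26 in hypoxia, against 2.92, 1.99 and 3.06 in normoxia. The groups did not overlap, and normoxia replicate 2 lay well below the other two normoxia arrays. The change was 1.64 ± 0.25 (SE), a 3.12-fold higher signal in hypoxia (adjusted p = 0.000669, limma). Without normoxia replicate 2 it was 1.31 (adjusted p = 8.23e-05). A slide block, which sets hypoxia against normoxia replicate 3 alone, gave 1.24 (adjusted p = 0.0174). Across the 5 scalings it ranged between 1.14 and 1.64. Cox4i1, the isoform found in most tissues, measured 4.86, 4.72 and 4.73 in hypoxia, against 4.40, 4.37 and 4.33 in normoxia. Its change of 0.40 ± 0.08 was called (adjusted p = 0.00339, limma). It was not called with quantile normalization (0.17, adjusted p = 0.0926), with the authors' deposited table (0.17), with normexp background correction (0.45, adjusted p = 0.0772) or with spike-in scaling (-0.0998). The difference between the isoforms within each array, Cox4i2 minus Cox4i1, averaged -0.47 ± 0.04 in hypoxia and -1.71 ± 0.59 in normoxia (SD, n = 3 each). It was thus 1.24 larger in hypoxia with no overlap between groups, at the smallest p that 3 against 3 arrays allow (two-sided exact permutation p = 0.1, adjusted p = 0.12 over 6 pairs).

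Cox6a2 and Cox6b2 moved the other way. Cox6a2, the heart and skeletal muscle isoform of subunit 6a, measured 1.11, 1.03 and 0.96 in hypoxia, against 2.71, 2.37 and 2.33 in normoxia. The hypoxia arrays all lay more than 1 unit below the lowest normoxia array, a change of -1.44 ± 0.12 (adjusted p = 2.18e-05, limma). It was -1.49 without normoxia replicate 2 and -1.30 with slide as a block. Cox6a1, the isoform of other tissues, measured 8.35, 8.30 and 8.33 in hypoxia, against 8.42, 8.45 and 8.26 in normoxia, and was not called (-0.05 ± 0.08, adjusted p = 0.618). Cox6b2, known in other mammals as a testis isoform of subunit 6b, measured -1.80, -2.10 and -1.74 in hypoxia, against -1.49, -1.30 and -1.26 in normoxia. Its change was -0.53 ± 0.13 (adjusted p = 0.00815, limma). The within-array difference Cox6a2 minus Cox6a1 changed by -1.39 in hypoxia (exact permutation p = 0.1, adjusted p = 0.12), and by -0.75 with quantile normalization.

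**Figure D2:**
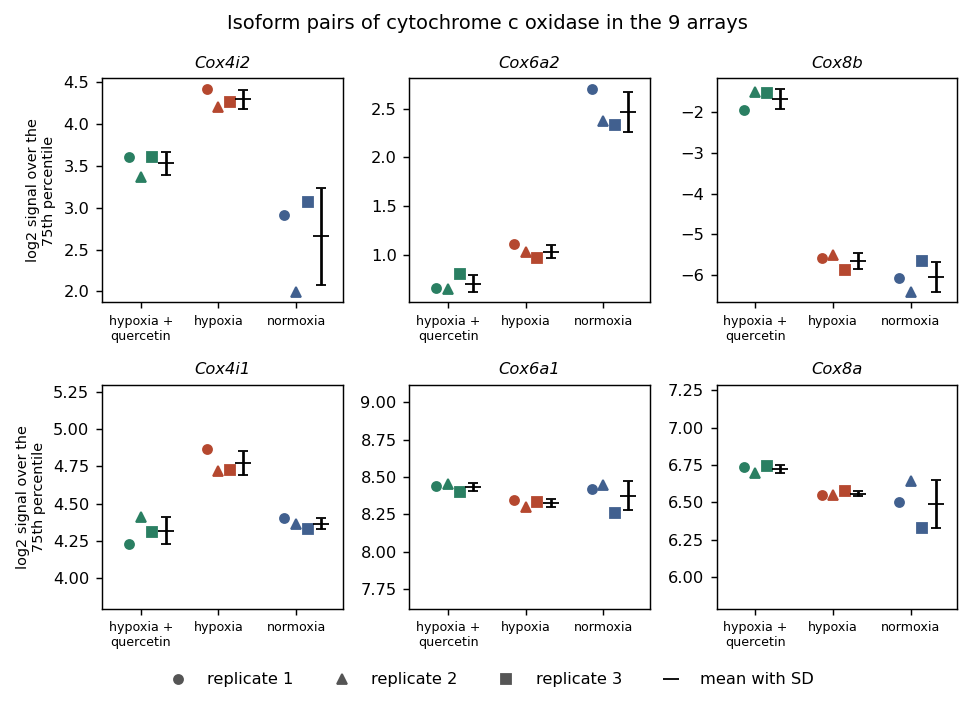
Log2 signal over the 75th percentile of the array (vertical axes, separate for each gene) for the isoform pairs of complex IV in hypoxia with quercetin, hypoxia and normoxia. Symbols are replicates, and bars are the mean with SD (n = 3). Cox8b stands apart with quercetin, Cox6a2 in normoxia, and Cox4i2 is highest in hypoxia, while Cox6a1 and Cox8a differ little between groups.

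Among the genes outside the complexes, 2 assembly factors of complex I and 1 gene that only shares the name fell furthest in hypoxia. Ndufaf4, an assembly factor of complex I, measured -0.46, -0.30 and -0.19 in hypoxia, against 2.31, 2.43 and 2.14 in normoxia. The groups were separated by over 2 units, and the change was -2.61 ± 0.11 (adjusted p = 2.01e-06, limma), or 0.164 times the normoxia signal. Its 2 further probes gave -2.03 and -2.01. Ndufaf7, a methyltransferase that acts in complex I assembly, measured -1.29, -1.26 and -1.41 in hypoxia, against -0.33, 0.02 and -0.40 in normoxia. All hypoxia arrays were lower (-1.09 ± 0.12, adjusted p = 0.00012, limma). With slide as a block the change was -2.45 for Ndufaf4 and -0.92 for Ndufaf7, and both were still called. Of the other 5 assembly factors tested, Atp5sl (now Dmac2), which takes part in complex I assembly, was called higher (0.40 ± 0.09), and Ndufaf1, Ndufaf3, Ndufaf5 and Ndufaf6 were not called.

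Cox4nb, named for its place beside Cox4i1 and now Emc8, encodes a subunit of the membrane protein complex of the endoplasmic reticulum and no subunit of the respiratory chain. It measured 1.43, 1.42 and 1.34 in hypoxia, against 3.12, 3.098 and 2.98 in normoxia. It was lower in every hypoxia array (-1.67 ± 0.10, adjusted p = 5.04e-06, limma), and the change was -1.59 with slide as a block. In the RefSeq promoter table of build GRCr8 the windows of Cox4i1 and Emc8, each 250 bases before to 50 after the start, overlap by 247 bases, and the genes are read away from each other with starts 148 bases apart. The Cox4i1 window is shown because these neighbours gave opposite signs in hypoxia, +0.40 for Cox4i1 and -1.67 for Cox4nb, although the sign for Cox4i1 turned with spike-in scaling. In it the capitals mark matches on either strand to ACGTG and GCGTG, the cores of the hypoxia response element, and to CCGGAAG, a core of ETS-family sites; the 2 matches to CCGGAAG lie on the complementary strand near the Cox4i1 start.
Cox4i1 (GRCr8, chr19:65630133-65630432, plus strand): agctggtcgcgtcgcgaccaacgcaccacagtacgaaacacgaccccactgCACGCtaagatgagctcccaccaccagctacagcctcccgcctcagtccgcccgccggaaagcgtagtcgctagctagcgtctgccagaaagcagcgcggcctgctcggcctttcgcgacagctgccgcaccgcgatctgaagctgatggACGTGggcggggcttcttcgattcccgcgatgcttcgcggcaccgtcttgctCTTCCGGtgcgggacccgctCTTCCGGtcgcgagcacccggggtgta
The window of Ndufaf4, the member that fell furthest in hypoxia, is shown beside it, with GCGCATGC, the core of nuclear respiratory factor 1 sites, searched as well. It holds overlapping matches to ACGTG on both strands (CACGTG) and to GCGCATGC on both strands.
Ndufaf4 (GRCr8, chr5:43401545-43401844, plus strand): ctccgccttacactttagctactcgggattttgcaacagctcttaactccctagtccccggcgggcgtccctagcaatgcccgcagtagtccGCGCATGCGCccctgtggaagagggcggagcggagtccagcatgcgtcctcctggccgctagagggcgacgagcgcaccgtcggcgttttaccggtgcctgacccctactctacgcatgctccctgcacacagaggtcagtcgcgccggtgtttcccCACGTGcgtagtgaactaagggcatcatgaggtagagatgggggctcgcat

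Promoter windows were found for 62 of the 73 tested subunit genes of complexes I to V. CCGGAAG occurred in 19 of them, or 30.6%, against 8.75% of all 33469 windows. GCGCATGC occurred in 8, or 12.9%, against 2.47% of all windows. The hypoxia response element cores ACGTG and GCGTG occurred in 24.2% and 43.5% of the subunit windows, against 19.3% and 29.7% of all windows. A match is a description of these letters and not a binding site.

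Within complex I, which pumps protons as it oxidizes NADH, 6 subunits were called higher and 12 lower in hypoxia among 34, or 52.9% against 64.2% of all genes. Of the lower ones 11 were called under every scaling, as were 28.4% of all genes. Ndufs5, a small subunit at the outer face of the inner membrane, fell furthest, with 4.12, 4.08 and 4.11 in hypoxia, against 4.88, 5.15 and 4.63 in normoxia. Its change was -0.78 ± 0.13 (adjusted p = 0.00107, limma), and it was still called without normoxia replicate 2 (-0.65) and with slide as a block (-0.52). Ndufv3, an accessory subunit of the NADH-binding module, measured 1.22, 0.97 and 1.11 in hypoxia, against 1.72, 2.44 and 1.39 in normoxia, where replicate 2 was the highest of all 9 arrays. Its call at -0.75 ± 0.26 (adjusted p = 0.0317) was lost without that array (-0.45, adjusted p = 0.0646) and under the slide block (-0.29, adjusted p = 0.472). Of the 7 core subunits, which carry the redox centres or pump protons, 1 was called higher and 2 lower. Ndufs1, which holds iron-sulphur clusters, was lower (-0.43 ± 0.11), as was Ndufv2 (-0.41 ± 0.09), another iron-sulphur subunit. With slide as a block these lower changes were -0.32 for Ndufs1 (adjusted p = 0.124) and -0.33 for Ndufv2 (adjusted p = 0.0566), no longer called.

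In complexes II and III the members split. Sdha, the flavoprotein that oxidizes succinate, measured 5.77, 5.77 and 5.82 in hypoxia, against 5.28, 5.27 and 5.25 in normoxia. This is 0.52 ± 0.07 higher with no overlap (adjusted p = 0.000346, limma), and 0.01 and not called with spike-in scaling. Sdhc, a membrane anchor, was lower (-0.29 ± 0.10, adjusted p = 0.0306), and this call was lost without normoxia replicate 2. Sdhb and Sdhd were not called. In complex III, which oxidizes ubiquinol, Uqcrh, the hinge protein, was 0.54 ± 0.09 higher and 0.04 with spike-in scaling. Uqcrfs1, the Rieske iron-sulphur protein, was higher (0.20 ± 0.07), and Uqcr11, Uqcrb and the core protein Uqcrc1 were lower (-0.42 ± 0.15, -0.21 ± 0.08 and -0.26 ± 0.08). Without normoxia replicate 2 the calls of Uqcrfs1 (0.19, adjusted p = 0.0553), Uqcr11 (-0.25, adjusted p = 0.0584) and Uqcrb (-0.18, adjusted p = 0.065) were lost, and with slide as a block all 4 were. A dimmer probe of Uqcrb gave -1.48 and another gave -0.35, so the size of that change depends on the probe. Uqcrc2, the other core protein, was not called (0.17 ± 0.08), but it was called higher without normoxia replicate 2 (0.20, adjusted p = 0.0425, limma).

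Complex V gave 5 members higher and 1 lower among 15, against 35.3% and 28.9% of all genes. The higher share was thus near that of all genes, and the higher ones did not hold under every scaling. All 5 measured subunits of its catalytic F1 part lay above the median of all genes with the 75th percentile. Their median was 0.34 with that scale, 0.02 with quantile normalization and -0.16 with spike-in scaling. Atp5g2 (now Atp5mc2), 1 of 3 genes for the same membrane ring subunit c, measured 7.48, 7.33 and 7.42 in hypoxia, against 6.86, 6.73 and 6.83 in normoxia. It was 0.60 ± 0.09 higher (adjusted p = 0.000455, limma) and 0.08 and not called with quantile normalization. The other subunit c genes, Atp5g1 (now Atp5mc1) and Atp5g3 (now Atp5mc3), changed by 0.11 ± 0.09 and -0.19 ± 0.09 and were not called. Within arrays, Atp5g2 minus Atp5g3 was 0.79 larger in hypoxia (exact permutation p = 0.1, adjusted p = 0.12). Atp5j (now Atp5pf), coupling factor 6 of the stalk, was lower under every scaling (-0.49 ± 0.12), and this call was lost with slide as a block (adjusted p = 0.167).

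**Figure D3:**
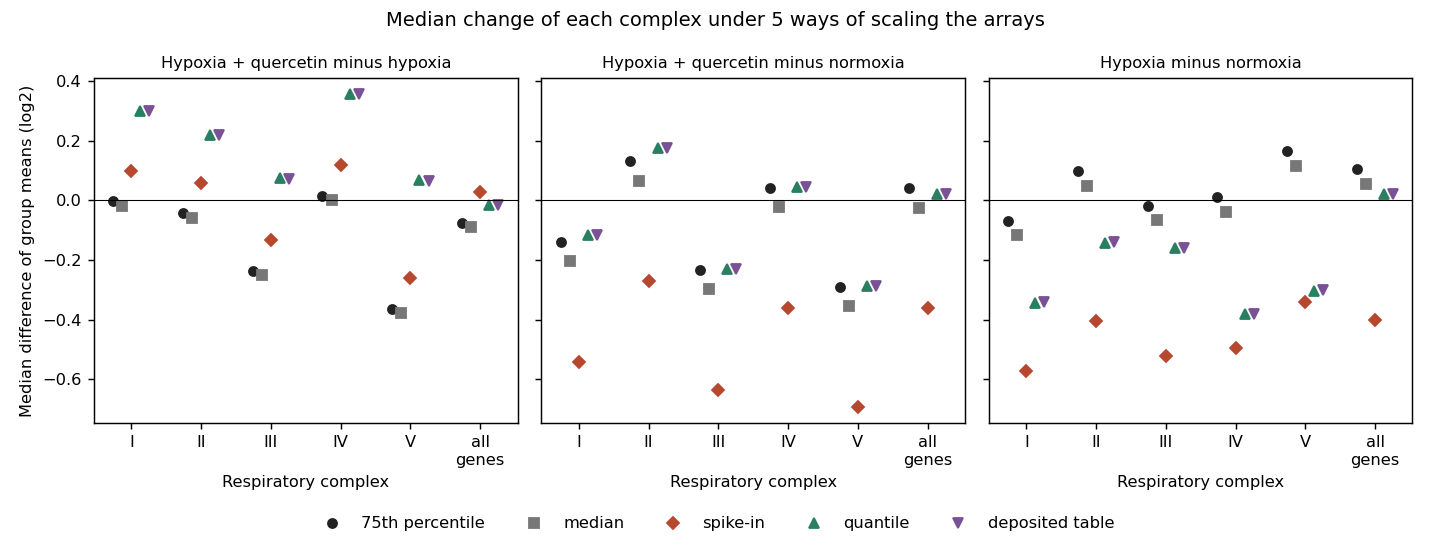
Median difference of group means (log2, vertical axis) for complexes I to V and for all genes tested, under 5 ways of scaling the arrays (symbols), in the 3 comparisons. Quantile normalization and the deposited table coincide and lie above the 75th percentile for quercetin minus hypoxia and below it for hypoxia minus normoxia, where spike-in scaling lowers every set by the same amount.

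Normoxia replicate 2 stood apart for complex I. It was above both other normoxia arrays for 31 of 34 complex I members, or 91.2%, against 37.4% of all genes tested, and it was the highest of all 9 arrays for 24 of them. The share was 73.3% for complex V, 50% for complexes III and IV, and 25% for complex II. Its median distance from the mean of the other two normoxia arrays was 0.29 for complex I and -0.04 for all genes. Ndufa11, a membrane subunit of complex I, measured 3.44 in that array and 2.58 and 2.50 in the other two, and Ndufv1, which binds NADH, measured 2.48, against 1.89 in each of the others. Cox4i2 went the other way, with a difference of -1.002 from the mean of the other two. Without it 24 members were called higher and 18 lower in hypoxia, 42 of 85, while 62.1% of all genes were called. Of the 43 members called with all arrays 35 kept their call and sign, 8 lost it, and 7 were gained, all higher in hypoxia. None took the opposite call. The medians of complex I moved to 0.00 without this array, against -0.07 with it, and of complex V to 0.22, against 0.16.

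The slide block leaves normoxia with 1 array, which is assumed to vary as the arrays of the other groups do. With it 18 members were called higher and 9 lower, 27 of 85, while 44.1% of all genes were called. Of the calls with all arrays 24 were kept, 19 were lost and none was reversed. The lower calls went down to 4 in complex I, against 12 with all arrays, and to 0 in complexes II, III and V. Cox4i2, Cox6a2, Ndufaf4, Ndufaf7, Cox4nb and Ndufs5 stayed called. Ndufs4, an accessory subunit needed for stable complex I, was well above background on 2 of 3 hypoxia arrays and was not called (-0.38 ± 0.22).

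**Figure D4:**
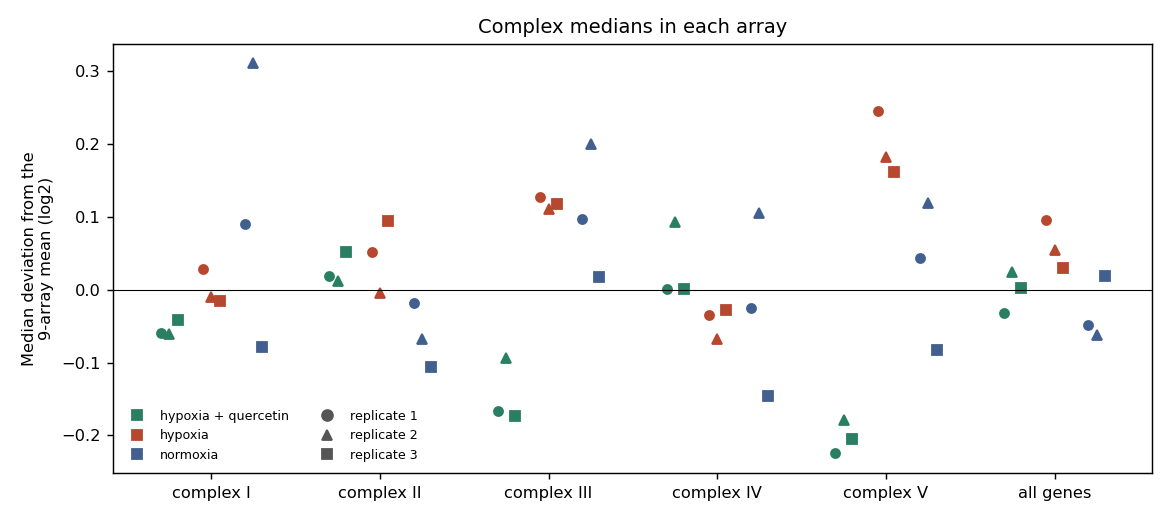
Median deviation of the members of each complex, and of all genes tested, from their own mean over 9 arrays (log2, vertical axis), 1 symbol per array, in hypoxia with quercetin, hypoxia and normoxia. Normoxia replicate 2 is at 0.31 for complex I and the quercetin arrays lie at -0.18 to -0.22 for complex V; with quantile normalization the complex V median of quercetin minus hypoxia turns to 0.07.

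With quercetin in hypoxia, against hypoxia alone, Cox8b was higher and the large F1 subunits of ATP synthase were lower. Ndufaf4, Ndufaf7 and Cox4nb were higher, the opposite sign of their change in hypoxia. With the 75th percentile 14 members were higher and 30 lower, 44 of 85, against 26.9% higher and 31.5% lower of all genes, 58.4% together. With quantile normalization the split turned to 35 higher and 9 lower. Under every scaling 10 members were called higher and 7 lower, against 25.2% and 23.1% of all genes. Both comparisons use the same hypoxia arrays, so opposite signs between them share that error. The members' median was -0.16 with the 75th percentile, against -0.08 for all genes, and 0.21 with quantile normalization, against -0.02.

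Cox8b, the heart and skeletal muscle isoform of subunit 8, measured -1.95, -1.51 and -1.53 with quercetin, against -5.57, -5.50 and -5.87 in hypoxia. The probe was well above background on all 3 quercetin arrays, on 0 of 3 hypoxia arrays and on 1 of 3 normoxia arrays. Set against the floor of those arrays (the lowest signal among their probes well above background, or the probe's own where that is higher), its signal was at least 8.57-fold higher with quercetin. The fit's adjusted p of 4.92e-06 (limma) is that of the measured values, not of this bound, and the probe passed the filter only through the quercetin arrays. In normoxia it measured -6.08, -6.41 and -5.66. Cox8a, the isoform of most tissues, measured 6.74, 6.70 and 6.75 with quercetin, against 6.55, 6.55 and 6.58 in hypoxia, and was not called (0.17 ± 0.09, adjusted p = 0.16).

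Cox4i2 with quercetin stood between hypoxia and normoxia. Against normoxia it was 0.87 ± 0.25 higher with no overlap (adjusted p = 0.0227, limma). This call was lost with spike-in scaling (0.47, adjusted p = 0.155), normexp (0.75) and no filter, and with only the groups compared in the fit. Leaving out quercetin replicate 1 or 3 also lost it. With scan day as a block the change was 0.47. Cox4i2 measured 3.61, 3.37 and 3.61 with quercetin, against 4.43, 4.21 and 4.26 in hypoxia, and the groups did not overlap. The change of -0.77 ± 0.25 was called (adjusted p = 0.0293, limma). It was not called with quantile normalization (-0.55, adjusted p = 0.105), the deposited table (-0.55), spike-in scaling (-0.67, adjusted p = 0.0533) or normexp (-0.92). Nor was it called without a filter, or when any 1 hypoxia or quercetin array was left out. It stayed called without normoxia replicate 2 (adjusted p = 0.000523) and with only the groups compared in the fit (adjusted p = 0.0012). The fit of all arrays shares its spread with normoxia, where the SD was 0.58, against 0.11 in hypoxia and 0.14 with quercetin. Cox4i1 changed by -0.45 ± 0.08 (adjusted p = 0.00217), and by -0.19 and not called with quantile normalization. Cox6a2 measured 0.66, 0.65 and 0.80 with quercetin, against 1.11, 1.03 and 0.96 in hypoxia; its call (-0.33 ± 0.12, adjusted p = 0.0377) was lost with the median as the scale (-0.35, adjusted p = 0.0543) and with spike-in scaling (-0.23, adjusted p = 0.19). It was also lost with normexp, without a filter, with the replicate block (adjusted p = 0.0596) and without any 1 of 5 of the 6 hypoxia and quercetin arrays. Cox6b2 was lower under every scaling (-0.54 ± 0.13, adjusted p = 0.00828). Ndufa4, named as a complex I gene and now known as a complex IV subunit, was higher under every scaling with quercetin (0.49 ± 0.12) and lower in hypoxia against normoxia (-0.46 ± 0.12). The hypoxia change of Ndufa4 was smaller without normoxia replicate 2 (-0.33), and -0.29 with slide as a block, against normoxia replicate 3 alone. For all 6 isoform pairs the within-array differences with quercetin did not overlap those in hypoxia (exact permutation p = 0.1 each), while single genes did not overlap for 71.1% of all genes. For Cox8b and Cox8a this carries no weight, since Cox8b passed the filter only through the quercetin arrays. Its probe was well above background on 0 of 3 hypoxia arrays. The pairs among Atp5g1, Atp5g2 and Atp5g3 share genes and are not independent of each other. With quantile normalization, the deposited table and normexp 5 of the 6 did not overlap.

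ATP synthase gave no member higher and 10 lower with quercetin among 15 with the 75th percentile, against 26.9% and 31.5% of all genes. With quantile normalization 8 of the 15 lay above the median of all genes, and 1 was called higher and 3 lower. The alpha, beta and gamma subunits of F1 were called lower under every scaling, as were 23.1% of all genes. Atp5c1 (now Atp5f1c), the rotating gamma subunit, measured 3.99, 3.86 and 4.05 with quercetin, against 4.79, 4.76 and 4.64 in hypoxia. The change was -0.76 ± 0.10 (adjusted p = 0.000304, limma), and it was between -0.52 and -0.78 under the 5 scalings. Atp5b (now Atp5f1b), the catalytic beta subunit, measured 3.12, 3.38 and 3.16 with quercetin, against 3.92, 3.89 and 3.80 in hypoxia (-0.65 ± 0.10, adjusted p = 0.000694). Atp5a1 (now Atp5f1a), the alpha subunit, was -0.47 ± 0.08 (adjusted p = 0.00117). In these 3 no quercetin array reached the hypoxia arrays. The small F1 subunits Atp5d (now Atp5f1d) and Atp5e (now Atp5f1e) were called lower with the 75th percentile (-0.41 ± 0.12 and -0.61 ± 0.09) and gave -0.14 and -0.09 with quantile normalization. Atp5g2 measured 6.62, 6.79 and 6.68 with quercetin, against 7.48, 7.33 and 7.42 in hypoxia (-0.71 ± 0.09, adjusted p = 0.000216), and gave -0.18 and was not called with quantile normalization.

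In complex I, 4 of 34 members were higher and 1 was lower with quercetin under every scaling. Over all genes 25.2% were higher and 23.1% lower under every scaling, so complex I was called less often. On the percentile scale 5 members were higher and 9 lower, but with quantile normalization 18 were higher and 2 lower. No direction is therefore given for complex I as a set. Those called lower on the percentile scale included Ndufa5 (-0.50 ± 0.13), Ndufb5 (-0.44 ± 0.09) and Ndufs8 (-0.43 ± 0.12). Ndufs5 measured 5.07, 4.89 and 5.04 with quercetin, against 4.12, 4.08 and 4.11 in hypoxia, which is 0.90 ± 0.13 higher (adjusted p = 0.000582). Ndufv3 was 0.94 ± 0.26 higher, Ndufs1 0.58 ± 0.11 and Ndufs4 0.61 ± 0.22. For Ndufs4 2 of the 3 arrays were well above background with quercetin, 2 of 3 in hypoxia and all 3 in normoxia.

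Complex II gave 2 members higher and 2 lower among 4 with quercetin with the 75th percentile, against 26.9% and 31.5% of all genes. Sdhc was higher under every scaling (0.44 ± 0.10), and Sdha was lower with the 75th percentile (-0.41 ± 0.07) but -0.06 and not called with quantile normalization. In complex III, Uqcrc2 measured 3.93, 3.96 and 3.95 with quercetin, against 4.64, 4.63 and 4.74 in hypoxia. It was lower under every scaling (-0.73 ± 0.08, adjusted p = 1e-04, limma). Uqcrc1, its partner in the core, measured 0.66, 0.68 and 0.61 with quercetin, against 0.77, 0.63 and 0.64 in hypoxia, groups that overlap (-0.03 ± 0.08).

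**Figure D5:**
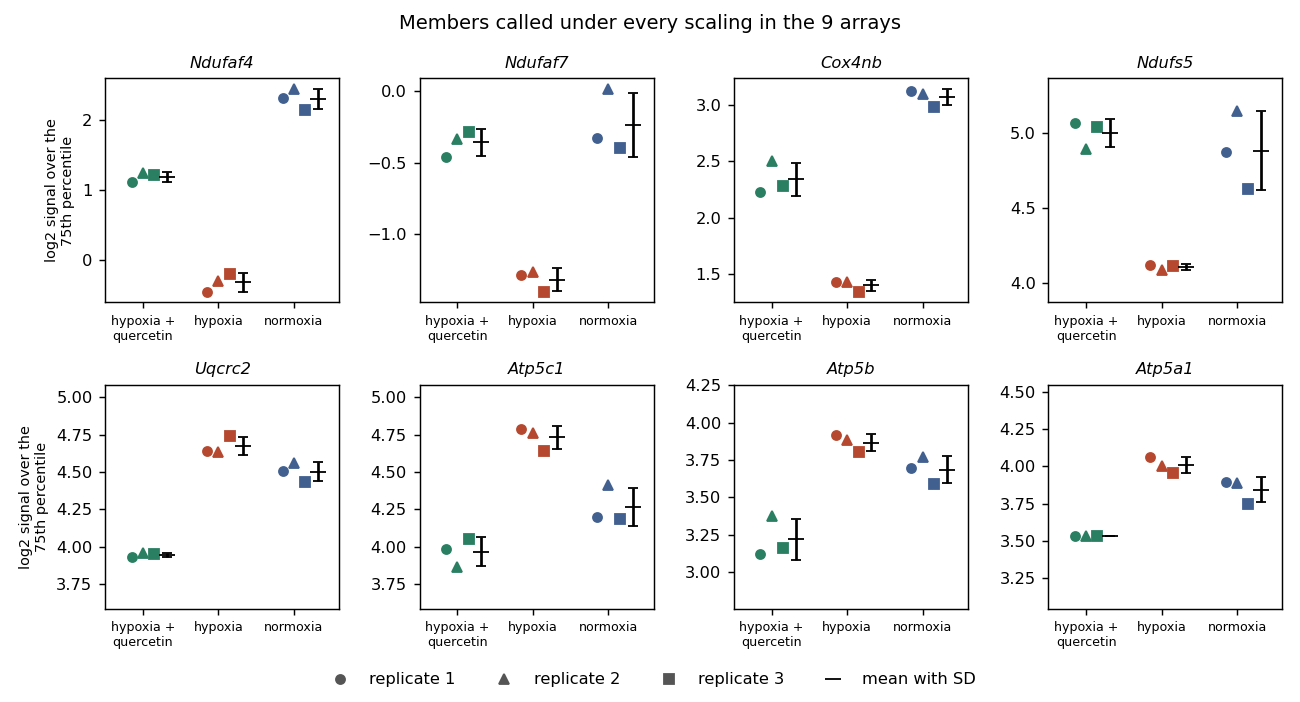
Log2 signal over the 75th percentile of the array (vertical axes, separate for each gene) for 8 members called under every scaling in at least 1 comparison, in hypoxia with quercetin, hypoxia and normoxia. Symbols are replicates, and bars are the mean with SD (n = 3). Ndufaf4, Ndufaf7, Cox4nb and Ndufs5 are lowest in hypoxia, and Uqcrc2, Atp5c1, Atp5b and Atp5a1 are lowest with quercetin.

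The genes outside the complexes with the largest hypoxia change had values with quercetin nearer to normoxia. Ndufaf4 measured 1.11, 1.24 and 1.21 with quercetin, against -0.46, -0.30 and -0.19 in hypoxia (1.50 ± 0.11, adjusted p = 1.6e-05, limma). It was still -1.11 ± 0.11 below normoxia (adjusted p = 0.000125). Ndufaf7 measured -0.46, -0.33 and -0.28 with quercetin (0.96 ± 0.12 above hypoxia, adjusted p = 0.00028) and was not called against normoxia (-0.12 ± 0.12, adjusted p = 0.456). Cox4nb measured 2.23, 2.50 and 2.28 with quercetin, 0.94 ± 0.10 above hypoxia (adjusted p = 8.97e-05) and -0.73 ± 0.10 relative to normoxia (adjusted p = 0.000556). Atp5sl was lower with quercetin than in hypoxia (-0.90 ± 0.09, adjusted p = 6.02e-05).

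Quercetin in hypoxia against normoxia left more members lower than higher under every scaling. With the 75th percentile 6 were higher and 29 lower, 35 of 85, against 23% higher and 21.3% lower of all genes, 44.3% together. Under every scaling 1 was higher, Cox8b, and 27 were lower, against 7.6% and 20.3% of all genes. Cox8b passed the filter only through the quercetin arrays and was well above background on 1 of 3 normoxia arrays. The lower ones were 10 of complex I, 1 of complex II, 3 of complex III, 2 of complex IV, 7 of complex V and 4 outside the complexes. None of the 15 complex V members lay above the median of all genes with the 75th percentile, and 1 did with quantile normalization; their median was -0.29 with either. Cox6a2 had the largest fall, with 0.66, 0.65 and 0.80 with quercetin, against 2.71, 2.37 and 2.33 in normoxia (-1.77 ± 0.12, adjusted p = 2.18e-05, limma). Ndufv2, an iron-sulphur subunit of complex I, measured 4.99, 5.02 and 5.01 with quercetin, against 5.73, 5.88 and 5.69 in normoxia (-0.76 ± 0.09, adjusted p = 0.000243). Ndufs8, another iron-sulphur subunit, was -0.62 ± 0.12, Uqcrb -0.56 ± 0.08 and Sdhb -0.25 ± 0.09. With scan day as a block, which sets the quercetin arrays against normoxia replicate 3, 5 members were called higher and 8 lower, against 26.3% of all genes called, and the members' median was 0.01.

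The subunits encoded by mitochondrial DNA, which the name rule does not take in, were set beside the members after their values were seen. The array held 18 probes on the mitochondrial chromosome named for 7 of these subunits, all kept, and they were tested probe by probe. In hypoxia against normoxia 12 were higher and 0 lower at an adjusted p under 0.05 (limma), against 34.6% of all kept probes called higher. With quercetin against hypoxia 11 were higher and 1 lower, against 27.3% called higher. With quercetin against normoxia 16 were higher and 0 lower, against 22.8%. The probe for Cytochrome c oxidase subunit 1 measured 8.48, 8.41 and 8.50 with quercetin, 8.49, 8.37 and 8.42 in hypoxia and 7.51, 7.30 and 7.54 in normoxia. It was 0.98 higher in hypoxia than in normoxia (adjusted p = 4.13e-05), and 0.04 with quercetin against hypoxia (adjusted p = 0.754). The probe for NADH-ubiquinone oxidoreductase chain 5 was 0.96 higher in hypoxia (adjusted p = 2.70e-05) and -0.43 with quercetin against hypoxia (adjusted p = 0.00223). Of the 18 probes 8 are for Cytochrome c oxidase subunit 2 and gave 0.41 to 0.52 in hypoxia, while the 4 probes for Cytochrome b (-0.03 to 0.05) and the probe for ATP synthase subunit a (-0.06) were not called. The median over the 18 probes was 0.41 in hypoxia against normoxia, but -0.16 with quantile normalization, where 2 were called higher and 4 lower, and -0.09 with spike-in scaling, where 2 were higher and 5 lower. No direction is therefore given for these probes as a set.

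Companion lists of mitochondrial genes outside the name rule were counted in the same fits with the 75th percentile, where 64.2% of all genes were called in hypoxia against normoxia and 58.4% with quercetin against hypoxia. Of 20 electron carriers and partners of the complexes 4 were higher and 10 lower in hypoxia against normoxia. Cycs, which encodes cytochrome c, changed by -1.22, and Cyc1, the cytochrome of complex III, by -0.81. With quercetin against hypoxia 7 of the 20 were higher and 8 lower, Cycs by 0.50 and Slc25a4, an ADP/ATP carrier, by -0.77. Of 25 further assembly factors and chaperones 8 were higher and 11 lower in hypoxia, and 12 higher and 6 lower with quercetin against hypoxia. Cox11, a copper chaperone of complex IV, changed by 1.20 in hypoxia and -0.95 with quercetin, and Ttc19, a complex III factor, by -1.43 and 1.86. Of 18 genes of the TCA cycle 5 were higher and 3 lower in hypoxia, and 3 higher and 10 lower with quercetin against hypoxia, among them Idh2 (0.56 and -1.27). Of 19 regulators of mitochondrial gene expression 4 were higher and 6 lower in hypoxia, and 6 higher and 3 lower with quercetin against hypoxia, with Myc at -1.89 and 1.38 and Ssbp1 at -1.42 and 1.05 in the same comparisons. Of 12 genes known to respond to the hypoxia-inducible factors, a list that includes Cox4i2, 10 were higher and 1 lower in hypoxia with a median of 1.70. With quercetin against hypoxia 1 was higher and 6 lower with a median of -0.73, for example Pdk1, which restrains pyruvate dehydrogenase, at 2.17 and -1.62.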

How the data were processed

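RNA of 9 samples was measured on 1-colour Agilent arrays. Per the file headers, Feature Extraction 10.7.3.1 gave the deposited spot intensities, with background subtracted. The authors' deposited value table is on the log2 scale, and its making was not stated. The labels name a microRNA labelling kit, while the file headers name a gene expression protocol. Control spots (1639) and spots that the scanner software marked as outliers were not used. The log2 of the processed intensity was scaled to each array's 75th percentile, and 26655 of 41012 probes entered, those that every array of some group showed well above background. The brightest kept probe stood for each gene. All 9 arrays entered 1 limma fit (limma 3.58.1, R 4.3.3) with Benjamini-Hochberg adjustment over 22108 genes, after a check of the fit on simulated data; isoform pairs were compared by an exact permutation test. Other scalings, filters, probe rules, blocks and left-out arrays were alternatives. The members and lists were chosen with earlier results of these data known. Named members were the 10 largest called changes per direction and comparison, isoform pairs, core subunits, and members whose hypoxia call depends on normoxia replicate 2 or the slide; others named beside them were chosen after their values were seen. Values of 1 member are not reported here singly, and it is counted in the totals. Same-numbered replicates did not deviate together: correlations of their deviations from group means ran between -0.27 and 0.02. The number of arrays limits the precision.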

Additional observations from a re-analysis of the deposited data

How the results depend on the processing

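Of 23 alternatives, quantile normalization, the deposited table, spike-in scaling and normexp moved the counts of members far, and median scaling moved them less. With quantile normalization 4 members were higher and 44 lower in hypoxia against normoxia (median -0.29), and 35 higher and 9 lower with quercetin against hypoxia (median 0.21). The authors' deposited table gave 4 and 44 (median -0.29), and 35 and 9 (median 0.20). Spike-in scaling gave 1 higher and 66 lower in hypoxia against normoxia (median -0.49), 16 lower with quercetin against hypoxia (median -0.0603), and 1 higher and 60 lower with quercetin against normoxia (median -0.53). The cause was not tested, but spike-in scaling by construction shifts all genes alike, their median in hypoxia against normoxia to -0.40. Normexp gave 9 higher and 7 lower in hypoxia against normoxia, 7 higher with quercetin against hypoxia, and 2 higher and 12 lower with quercetin against normoxia; over all genes it called 6721, 6166 and 3171 in the 3 comparisons. Without a filter 14 were lower in hypoxia against normoxia, 9 higher with quercetin against hypoxia and 17 lower with quercetin against normoxia. With only the groups compared in the fit 17 were lower with quercetin against normoxia. Slide or scan day as a block left 9 lower in hypoxia against normoxia (median 0.13 with either). The scan day block left 8 lower and a median of 0.0118 with quercetin against normoxia, and 5815 calls over all genes. Slide as a random block left 9 higher with quercetin against hypoxia.

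The labels share replicate numbers across groups, but nothing says that they pair the samples. With the replicate block 9 members were higher with quercetin against hypoxia, against 14 without it.

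With each array left out in turn, members higher in hypoxia against normoxia numbered 13 to 24 and lower ones 15 to 27 (median -0.0759 to 0.0780). With quercetin against hypoxia 9 to 18 were higher and 22 to 40 lower (median -0.19 to -0.11). With quercetin against normoxia 4 to 10 were higher and 19 to 33 lower (median -0.21 to -0.05). The lower count in hypoxia against normoxia was 15 without hypoxia replicate 2 or hypoxia replicate 3. The higher count with quercetin against hypoxia was 9 without normoxia replicate 1, hypoxia replicate 3, quercetin replicate 1 or quercetin replicate 3. With quercetin against normoxia the lower count was 19 without normoxia replicate 1, quercetin replicate 1 or quercetin replicate 3, and the higher count was 10 without normoxia replicate 2.

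Single members turned sign with a call on either side. In hypoxia against normoxia quantile normalization gave Atp5f1 -0.30, Atp5h -0.26, Cox8a -0.39, Ndufa6 -0.0652 and Uqcrfs1 -0.0702, and Ndufa5 0.0315 with quercetin against hypoxia. The deposited table gave Atp5f1 -0.30, Atp5h -0.25, Cox8a -0.38, Ndufa6 -0.0642 and Uqcrfs1 -0.0682, and Ndufa5 0.0265. Spike-in scaling in hypoxia against normoxia gave Atp5a1 -0.34, Atp5b -0.32, Atp5c1 -0.0394, Atp5d -0.0773, Atp5f1 -0.26, Atp5g1 -0.39, Atp5h -0.33, Atp5hl1 -0.41, Atp5l -0.38, Atp5s -0.0582, Cox4i1 -0.10, Cox5b -0.44, Cox7a2l -0.0668, Cox8a -0.43, Ndufa10l1 -0.19, Ndufa6 -0.0524, Ndufa7l -0.37, Ndufa9 -0.44, Ndufb10 -0.41, Ndufs7 -0.49, Sdhb -0.44, Sdhd -0.37, Uqcrc2 -0.33 and Uqcrfs1 -0.31. With quercetin against normoxia it gave Cox6a1 -0.35, Ndufa6 -0.13, Sdha -0.30 and Sdhd -0.0395. The median of the probes of mitochondrial DNA in hypoxia against normoxia, an alternative chosen after seeing the data, was -0.16 with quantile normalization and -0.0908 with spike-in scaling.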
